A study of Mus musculus with 8 samples.

Results

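The cytotoxic granule proteins are the set of secreted and granule-bound molecules with which natural killer cells and cytotoxic T cells kill other cells. They were followed here through 10 genes, Prf1, Gzma, Gzmb, Gzmk, Gzmm, Nkg7, Ctsw, Srgn, Fasl and Ccl5, and all 10 were found among the 39290 gene names of the deposited table. The genes were chosen by their FPKM levels in these 8 libraries, with the difference between the high dose and model groups already known, so the levels and differences of these 10 genes are given as a description and carry no test. In a killing lymphocyte, granules release perforin, which opens pores in the target membrane, and granzymes, serine proteases that pass through those pores and cleave proteins of the target. Granzymes are held in the granule on serglycin, a proteoglycan, and Fas ligand on the cell surface gives a separate route to cell death. In the lung these cells guard against infected and damaged cells, and natural killer cells are among the resident lymphocytes.

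RNA sequencing values were available for 8 mouse samples, 4 titled as a high dose group and 4 titled as a model group, and the series title names Platycodin D (PD), a saponin of Platycodon root, and a mouse model of idiopathic pulmonary fibrosis (IPF). Strain, age, way of making the model, dose and treatment time were not stated. Nothing says that the 4 replicates are separate animals, so the spread between them, and every p-value below, may be technical. No untreated group was analysed here. The labels name lung tissue and also MLF, mouse lung fibroblasts, for every sample. Transcripts of alveolar epithelium (6 markers) summed to between 14723 and 21596 FPKM in the high dose libraries and between 11196 and 16699 FPKM in the model libraries, FPKM being fragments per kilobase of transcript, scaled to the fragments of the library. Pecam1, an endothelial adhesion molecule, averaged 213.9 ± 21.2 FPKM in high dose and 219 ± 22.9 FPKM in model libraries, and is not a fibroblast marker. The column codes start with QM for the libraries titled high dose and with QH for those titled model, letters that could be read the other way round, and every direction below follows the titles and would be inverted if they were exchanged. Column sums ran from 845852 to 1249864 FPKM, read counts were not given, and the depth behind each value is unknown. A single row held 6.17% to 41.5% of a library's FPKM, the most in high dose replicate 2.

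Most of the 10 genes were lower in the high dose libraries, and the main killing molecules by the widest margin. Perforin, granzyme A and granzyme B were 8.58-fold to 11.6-fold lower by group means, Nkg7, Fasl and Ccl5 were 4.17-fold, 4.13-fold and 4.02-fold lower, and Gzmm was 1.56-fold lower. Ctsw and Gzmk were 1.92-fold and 2.54-fold lower with overlapping libraries, and Srgn averaged 76.8 FPKM in high dose and 79.5 FPKM in model libraries. The 4 high dose and 4 model libraries did not overlap for 7 of the 10 genes, all lower in high dose, against 6.46% of all 14418 tested genes. In the limma fit over all genes 6 of the 10 were called lower and 0 higher, where 4.27% of tested genes were called lower. These shares are printed for scale only, since the same comparison was known when the genes were chosen. The median log2 difference of the 10 genes was -1.46, and that of all tested genes was 0.04. In bulk tissue, fewer cells of a type and less RNA per cell cannot be told apart.

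**Figure D1:**
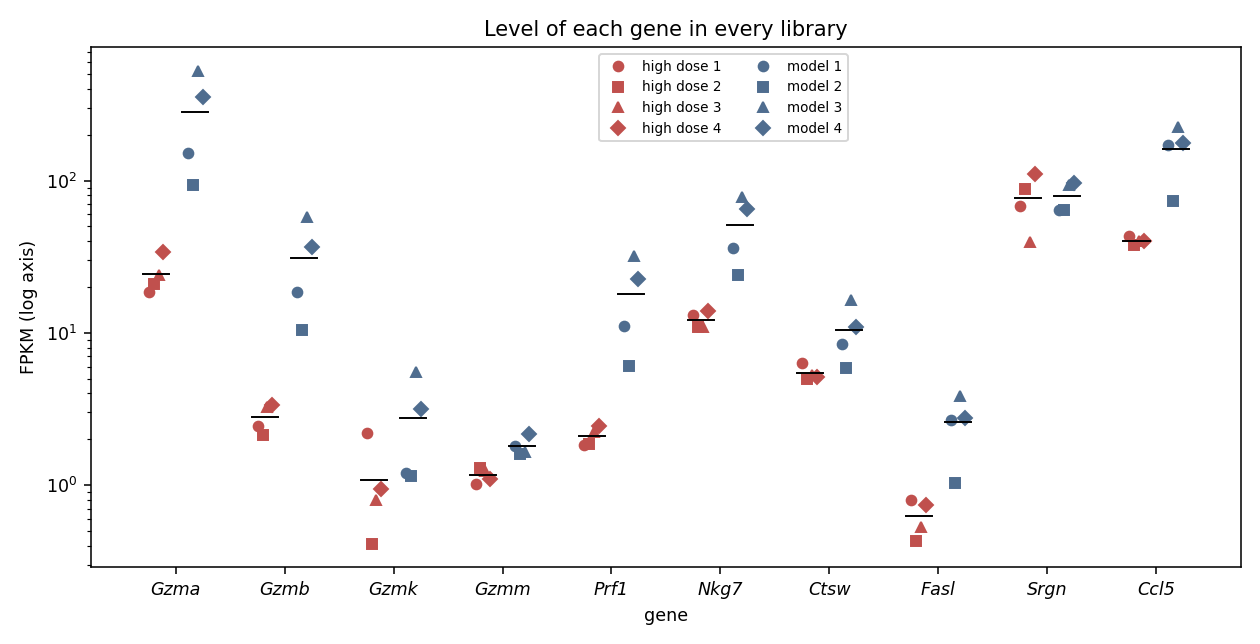
FPKM of each of the 10 genes (log axis) in the 4 high dose (red) and 4 model (blue) libraries, with marker shape for the replicate number and a black line at the group mean. Gzma, Gzmb, Prf1, Nkg7, Fasl, Gzmm and Ccl5 show no overlap between the groups, whereas Gzmk, Ctsw and Srgn do.

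Prf1 encodes perforin, the pore-forming protein without which granzymes do not reach the inside of the target. Its level was 1.85, 1.86, 2.23 and 2.44 FPKM in high dose replicates 1 to 4, against 11.1, 6.05, 32.1 and 22.6 FPKM in model replicates 1 to 4. Every model library lay above every high dose library, and the lowest of them was 2.48 times the highest high dose value. The means were 2.09 ± 0.293 FPKM in high dose and 17.96 ± 11.7 FPKM in model libraries (SD, n = 4 each), a log2 difference of -2.38 ± 0.43 (SE of the fit, on the log2(FPKM + 1) scale).

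Gzma encodes granzyme A, a protease that cuts after basic residues, and had the highest mean of the 10 transcripts in the model libraries. In model replicate 1 Ccl5 was higher, at 172 FPKM. Gzma stood at 18.5, 20.8, 23.9 and 33.7 FPKM in high dose replicates 1 to 4, against 152, 93.1, 524 and 353 FPKM in model replicates 1 to 4. The groups did not overlap, with the lowest model library at 2.76 times the highest high dose library, although the model libraries themselves spanned a 5.63-fold range. Mean levels were 24.2 ± 6.69 FPKM in high dose and 281 ± 197 FPKM in model libraries. By mean level, 77.4% of the 14418 tested genes lay at or below Gzma in high dose libraries and 98.9% in model libraries.

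Gzmb encodes granzyme B, which cuts after aspartate and thereby activates caspases and the death protein Bid. Its values were 2.45, 2.13, 3.26 and 3.36 FPKM in high dose replicates 1 to 4, against 18.7, 10.4, 57.4 and 36.7 FPKM in model replicates 1 to 4. No library of one group reached the other, and the step between the nearest pair, 3.09-fold, was the widest among the 10 genes. The log2 difference was -2.81 ± 0.46 for Gzmb and -3.21 ± 0.51 for Gzma (SE).

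The remaining measured granzymes were scarce. Gzmk, which encodes granzyme K, a protease that also cuts after basic residues, had 2.19, 0.413, 0.798 and 0.937 FPKM in high dose replicates 1 to 4, against 1.21, 1.14, 5.52 and 3.15 FPKM in model replicates 1 to 4. High dose replicate 1 exceeded 2 of the model libraries, so the groups overlapped, and the log2 difference was -0.76 ± 0.39. Gzmm, whose protein prefers to cut after methionine and leucine, had 1.02, 1.29, 1.24 and 1.10 FPKM in high dose replicates 1 to 4, against 1.80, 1.61, 1.66 and 2.17 FPKM in model replicates 1 to 4. The groups did not touch, but they were close, with a 1.24-fold step between the nearest libraries and a log2 difference of -0.38 ± 0.11. Because Gzmm lay near 1 FPKM, the added value of 1 shrank this difference, which was -0.63 with a pseudocount of 0.01. The 6 further granzymes of the mouse, Gzmc, Gzmd, Gzme, Gzmf, Gzmg and Gzmn, summed to at most 0.156 FPKM in high dose and 0.0892 FPKM in model libraries. Of these, 3 were listed at 0 in every library.

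Apart from perforin, the granzymes and the signalling molecules, the set held Nkg7, Ctsw and Srgn. Nkg7 encodes a membrane protein of cytotoxic granules needed for their efficient release. It had 13.0, 10.9, 10.9 and 13.8 FPKM in high dose replicates 1 to 4, against 35.9, 24.1, 77.7 and 65.2 FPKM in model replicates 1 to 4. The high dose libraries were tightly grouped, with a coefficient of variation of 12.5% against 49.2% in the model libraries, and the groups were separate (log2 difference -1.84 ± 0.33). Ctsw encodes cathepsin W, a cysteine protease found mainly in natural killer and cytotoxic T cells. Its level was 6.30, 4.97, 5.27 and 5.15 FPKM in high dose replicates 1 to 4, against 8.44, 5.84, 16.4 and 10.9 FPKM in model replicates 1 to 4. Model replicate 2 lay below high dose replicate 1, the other model libraries lay above all high dose libraries, and the log2 difference was -0.75 ± 0.25.

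Srgn encodes serglycin, the proteoglycan core on which granzymes and perforin are stored, which is also made by neutrophils, mast cells, macrophages and platelets. It had 68.5, 88.4, 39.7 and 110.5 FPKM in high dose replicates 1 to 4, against 64.5, 63.9, 93.4 and 96.2 FPKM in model replicates 1 to 4. The high dose libraries enclosed all the model libraries, since they held both the lowest and the highest value. The means were 76.8 ± 30.1 FPKM in high dose and 79.5 ± 17.7 FPKM in model libraries, and the log2 difference of -0.12 ± 0.30 was smaller than its error and became 0.16 without high dose replicate 3.

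The signalling molecules of the set were Fasl and Ccl5. Fasl encodes Fas ligand, which triggers death through the receptor Fas. It had 0.800, 0.431, 0.528 and 0.741 FPKM in high dose replicates 1 to 4, against 2.69, 1.03, 3.84 and 2.76 FPKM in model replicates 1 to 4. The groups did not overlap, with model replicate 2 closest to the high dose values. Fasl passed the filter of a mean of 1 FPKM over the 8 libraries only through the model group, and its log2 difference was -1.08 ± 0.24, or -1.93 with a pseudocount of 0.01. It was one of the 6 genes called in the fit over all genes, and the call was not made in 7 of the 8 fits that left out 1 library (each but that without model replicate 2) nor without the filter on low values.

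Ccl5 encodes a chemokine that attracts T cells, natural killer cells and monocytes, and that cytotoxic lymphocytes secrete. Its level was 43.1, 37.7, 40.03 and 40.2 FPKM in high dose replicates 1 to 4, against 172, 73.8, 225 and 176 FPKM in model replicates 1 to 4. The high dose libraries were tightly grouped, with a coefficient of variation of 5.48%, against 39.1% in the model libraries. The means of 40.3 ± 2.21 FPKM in high dose and 162 ± 63.3 FPKM in model libraries gave a log2 difference of -1.87 ± 0.30.

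**Figure D2:**
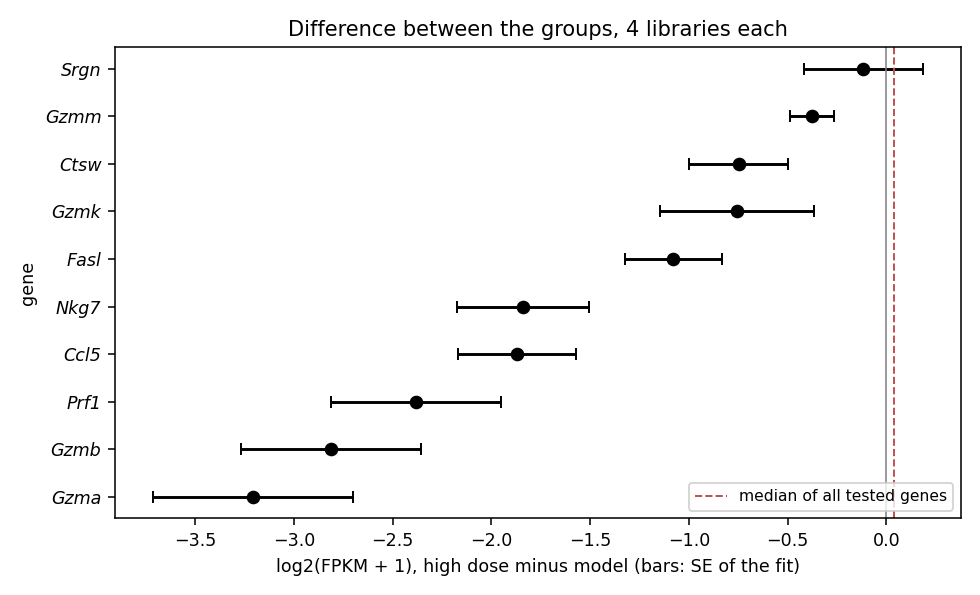
Log2 difference (high dose minus model, log2(FPKM + 1) scale) of each of the 10 genes, with bars for the SE of the fit, 4 libraries per group; the dashed line is the median of all tested genes, 0.04. Differences run from -3.21 for Gzma to -0.12 for Srgn.

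The order of the 10 mean levels differed between the groups. In high dose libraries Srgn was highest, followed by Ccl5, Gzma, Nkg7, Ctsw, Gzmb, Prf1, Gzmm, Gzmk and Fasl. In model libraries the order was Gzma, Ccl5, Srgn, Nkg7, Gzmb, Prf1, Ctsw, Gzmk, Fasl and Gzmm. In high dose libraries 5 of the 9 neighbouring pairs in that order had ranges that did not overlap, namely Ccl5 over Gzma, Gzma over Nkg7, Nkg7 over Ctsw, Ctsw over Gzmb and Prf1 over Gzmm. In model libraries 1 of 9 did, that between Ctsw and Gzmk, so most neighbours there were within the spread of the libraries.

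Promoter windows are shown for 5 genes that cover the range of differences: the 3 with the largest differences (Gzma, Gzmb and Prf1), Nkg7, and Srgn with the smallest. The sequences are RefSeq windows of build GRCm38.p6, from 250 bases before to 50 after the start of the gene, printed on the strand of the gene; the deposited values used build mm39. Capitals mark every match on either strand to TGTGGT, the core bound by RUNX factors, or to GGTGTGA, part of the element bound by T-box factors such as T-bet and Eomes. The windows were as follows.
Gzma, chr13:113100932-113101231, minus strand: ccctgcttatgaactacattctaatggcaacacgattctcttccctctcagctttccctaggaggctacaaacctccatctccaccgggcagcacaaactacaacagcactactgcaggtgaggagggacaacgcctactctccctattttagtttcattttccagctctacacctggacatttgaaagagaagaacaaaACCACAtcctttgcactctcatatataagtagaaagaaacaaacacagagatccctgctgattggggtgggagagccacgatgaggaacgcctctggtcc
Gzmb, chr14:56262285-56262584, minus strand: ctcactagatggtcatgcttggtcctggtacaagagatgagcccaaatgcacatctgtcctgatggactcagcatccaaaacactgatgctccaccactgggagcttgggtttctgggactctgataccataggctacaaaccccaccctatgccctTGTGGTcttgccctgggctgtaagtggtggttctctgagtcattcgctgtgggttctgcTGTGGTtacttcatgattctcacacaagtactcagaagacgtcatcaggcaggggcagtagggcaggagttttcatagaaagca
Prf1, chr10:61297586-61297885, plus strand: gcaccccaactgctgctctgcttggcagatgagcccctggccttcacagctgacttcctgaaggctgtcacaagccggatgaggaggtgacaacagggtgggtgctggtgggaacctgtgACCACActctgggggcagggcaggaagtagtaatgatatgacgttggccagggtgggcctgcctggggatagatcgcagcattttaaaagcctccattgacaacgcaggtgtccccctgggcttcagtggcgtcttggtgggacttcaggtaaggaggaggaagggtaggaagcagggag
Nkg7, chr7:43436888-43437187, plus strand: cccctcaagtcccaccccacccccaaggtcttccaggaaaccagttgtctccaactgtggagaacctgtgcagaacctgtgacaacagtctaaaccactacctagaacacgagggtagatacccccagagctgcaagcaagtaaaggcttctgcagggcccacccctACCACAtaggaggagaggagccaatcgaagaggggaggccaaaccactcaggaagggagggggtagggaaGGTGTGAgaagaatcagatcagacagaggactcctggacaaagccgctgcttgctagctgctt
Srgn, chr10:62527396-62527695, minus strand: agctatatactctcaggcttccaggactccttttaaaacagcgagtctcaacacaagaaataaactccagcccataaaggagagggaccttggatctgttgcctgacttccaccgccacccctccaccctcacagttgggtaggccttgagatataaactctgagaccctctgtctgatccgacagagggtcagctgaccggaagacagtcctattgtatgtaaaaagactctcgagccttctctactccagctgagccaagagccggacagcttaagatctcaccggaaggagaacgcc

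RefSeq windows were at hand for 8 of the 10 genes, 10 windows in all because Srgn and Gzmm had more than 1. The RUNX letters occurred in 6 of these 10 windows, those of Gzma, Gzmb, Prf1, Nkg7, a Gzmm window and a Srgn window not printed, against 16.8% of the 32851 windows of the table. In Gzma the match began 50 bases before the start of the gene, and in Gzmb matches began 93 and 34 bases before it. The T-box letters occurred in 3 windows, of Nkg7, Gzmk and Gzmm, against 3.98% of all windows. The Nkg7 match began 13 bases before the start. The 2 motifs share no overlapping match in these windows. The other 3 motifs were searched, on both strands: AGGAAG (ETS factors) stood in 4 of the 10 windows and 35.4% of all windows, TTCNNNGAA (STAT factors) in 3 and 8.30%, and the interferon response element in 2 and 3.44%. The interferon response match lay in Gzma, 97 bases before the start, and in the Srgn window not printed. A match is a run of letters and was not tested as a binding site, and the printed Srgn window held none of the 5 motifs.

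The levels of 8 of the 10 genes had the same order among the model libraries. Model replicate 2 was the lowest model library for all 10 genes. For 8 of them (all but Gzmm and Srgn) replicate 3 was highest, replicate 4 next and replicate 1 after it, and for Gzmm and Srgn replicate 4 was highest. The range among model libraries was widest for Gzma, Gzmb and Prf1, at 5.63-fold, 5.53-fold and 5.31-fold, and narrowest for Srgn and Gzmm, at 1.51-fold and 1.35-fold. High dose libraries followed no common order. High dose replicate 4 was highest for 5 of the 10 genes, Gzma, Gzmb, Prf1, Nkg7 and Srgn, and the ranges there were 1.82-fold for Gzma, 1.58-fold for Gzmb and 1.32-fold for Prf1. The summed level of 15 natural killer markers had the same order among model libraries, 128, 62.4, 212 and 147 FPKM in replicates 1 to 4.

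The make-up of the set also differed between the groups. The 10 genes summed to 158, 169, 128 and 212 FPKM in high dose replicates 1 to 4, against 468, 281, 1037 and 769 FPKM in model replicates 1 to 4. Gzma made up 11.7% to 18.7% of this sum in high dose libraries and 32.4% to 50.5% in model libraries, with no overlap. Gzmb made up 1.26% to 2.55% in high dose and 3.69% to 5.54% in model libraries, and Prf1 1.10% to 1.74% in high dose and 2.15% to 3.09% in model libraries. Srgn held a larger share in high dose libraries, 31.0% to 52.3% of the sum, against 9.01% to 22.7% in model libraries. Its own FPKM overlapped between the groups, with means of 76.8 in high dose and 79.5 in model libraries. A share depends on the sum, which was lower in every high dose library. Nkg7 (6.43% to 8.53% in high dose, 7.50% to 8.57% in model) and Ccl5 (19.0% to 31.3% in high dose, 21.7% to 36.8% in model) held shares that overlapped between the groups.

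**Figure D3:**
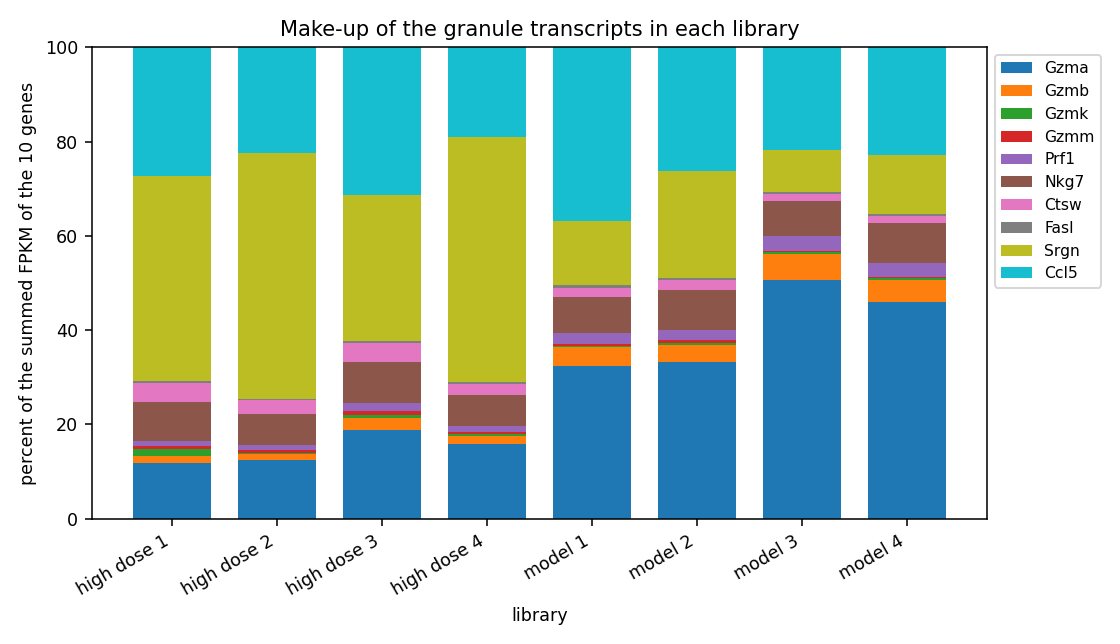
Share of each gene (percent) in the summed FPKM of the 10 genes, 1 stacked bar per library, high dose libraries left and model libraries right. Gzma makes up 11.7% to 18.7% of the high dose bars and 32.4% to 50.5% of the model bars, and Srgn 31.0% to 52.3% of the high dose bars and 9.01% to 22.7% of the model bars.

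Ratios between the genes within a library showed which of them kept step. The ratio of Gzma to Gzmb in FPKM was 7.55, 9.77, 7.34 and 10.02 in high dose replicates 1 to 4, against 8.14, 8.97, 9.13 and 9.62 in model replicates 1 to 4. The model values lay inside the high dose range, although Gzma was 11.6-fold and Gzmb 11.0-fold lower in high dose libraries by group means. The ratio of Gzmb to Prf1 was 1.33, 1.15, 1.46 and 1.38 in high dose replicates 1 to 4, against 1.68, 1.72, 1.79 and 1.62 in model replicates 1 to 4. Here the groups did not overlap, so that granzyme B transcripts were lower relative to perforin in high dose libraries. Nkg7 stood at 2.07 to 2.69 times Ctsw in high dose libraries and at 4.12 to 5.98 times Ctsw in model libraries, again without overlap. Gzma exceeded its chromosomal neighbour Gzmk by 8.43-fold to 50.5-fold in high dose libraries and by 81.7-fold to 126-fold in model libraries.

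Setting each gene against the summed level of natural killer markers split the set. This sum, over 15 receptor and signalling genes such as Ncr1, Klrd1, Klra8 and Il2rb, was 37.3 to 42.4 FPKM in high dose libraries and 62.4 to 212 FPKM in model libraries. Relative to it, Gzma stood at 0.480, 0.558, 0.606 and 0.794 in high dose replicates 1 to 4, against 1.18, 1.49, 2.47 and 2.39 in model replicates 1 to 4. Gzmb (0.0707 ± 0.0122 in high dose, 0.208 ± 0.0611 in model) and Prf1 (0.0529 ± 0.00481 in high dose, 0.122 ± 0.0352 in model) were likewise lower relative to this sum in every high dose library (SD, n = 4 each). Ctsw and Gzmm stood the other way. Ctsw was at 0.138 ± 0.0180 in high dose and 0.0777 ± 0.0117 in model libraries without overlap. Gzmm stood at 0.0296 ± 0.00414 in high dose and 0.0156 ± 0.00746 in model libraries, and its groups all but touched, at 0.0259 in the lowest high dose library and 0.0258 in model replicate 2. Nkg7 (0.308 ± 0.0293 in high dose, 0.369 ± 0.0674 in model), Ccl5 (1.02 ± 0.0710 in high dose, 1.19 ± 0.115 in model) and Fasl (0.0158 ± 0.00415 in high dose, 0.0186 ± 0.00183 in model) overlapped between the groups. Gzmk and Srgn overlapped too. The tested markers in this sum did not fall alike, and abundant markers weigh most in it. Their log2 differences ran from -1.99 ± 0.37 for Klra4 and -1.93 ± 0.40 for Ncr1 to -0.25 ± 0.14 for Itga2, whose groups overlapped. Ratios to single markers were not taken, so the split may not hold for other choices of marker. The markers share paralogs, and Klra4, Klra8 and Klra9 were summed over 2, 2 and 3 rows, so the division of reads among them is uncertain; without these 3 genes all 10 log2 ratios of the groups kept their sign. The sign of Gzmk alone turned when a library was left out, to -0.08 without high dose replicate 1 from 0.56 with all libraries.

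**Figure D4:**
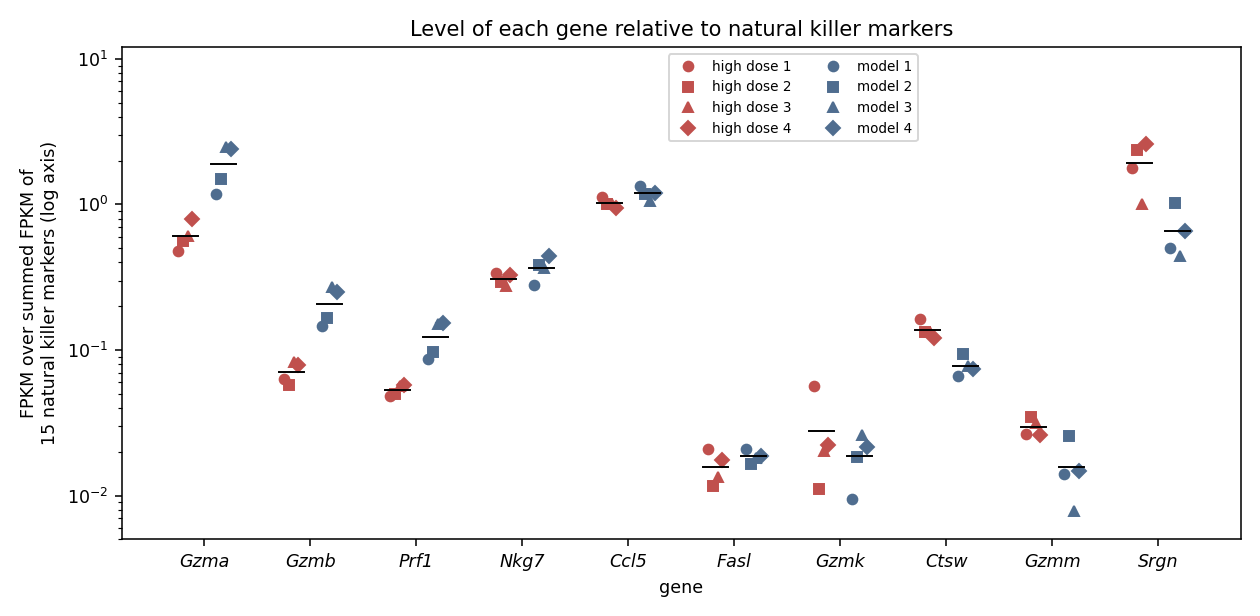
FPKM of each gene divided by the summed FPKM of 15 natural killer markers (log axis) in the 4 high dose (red) and 4 model (blue) libraries, black lines at the group means. Gzma, Gzmb and Prf1 lie lower in every high dose library, Ctsw higher, Gzmm higher by a narrow margin (0.0259 against 0.0258 in the nearest libraries), and Nkg7, Ccl5, Fasl, Gzmk and Srgn overlap.

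T cells are the other lymphocytes that carry these granules. The summed level of 15 T cell markers was 77.4 to 100.3 FPKM in high dose libraries and 80.4 to 119 FPKM in model libraries, and the groups overlapped. Over all 14418 tested genes, 3688 had an unadjusted p under 0.05 in the limma fit. None of the 15 T cell markers was called by limma at an adjusted p under 0.05, while 2 had an unadjusted p under 0.05. Those were the chains of the CD8 coreceptor of cytotoxic T cells, named after their values were seen: Cd8a averaged 4.85 ± 0.475 FPKM in high dose and 6.76 ± 1.02 FPKM in model libraries (log2 difference -0.40 ± 0.12, limma adjusted p = 0.0645) and Cd8b1 5.52 ± 0.0766 and 7.35 ± 1.49 FPKM (-0.34 ± 0.13, adjusted p = 0.127). The libraries of the groups did not overlap for these 2 of the 15 markers, lower in high dose, against 6.46% of all 14418 tested genes. Cd8a passed the limma threshold with quantile normalization or median centring and without model replicate 2 (adjusted p = 0.0337). Relative to the T cell sum, Gzma stood at 0.193 to 0.336 in high dose libraries and 1.10 to 4.45 in model libraries, Prf1 at 0.0192 to 0.0243 and 0.0716 to 0.281, and Ctsw at 0.0513 to 0.0655 and 0.0691 to 0.139. Of the 10 genes, Gzmk, Gzmm and Srgn overlapped on this scale.

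Tested genes whose profile over the 8 libraries was most like that of a granule gene were also sought. Predicted genes named Gm plus digits and Rik clones were left out of this search. Likeness was measured by the root-mean-square difference of log2(FPKM + 1) values centred on each gene's mean, a measure that the difference between the groups dominates. The gene nearest to Gzma was Gzmb, at 0.25. Outside the set the nearest to Gzma were Fcgr4, a receptor for immunoglobulin G (0.44), the guanylate-binding protein gene Gbp2 (0.45) and the protease inhibitor gene Serpina3f (0.46). Those nearest to Prf1 were the natural killer receptor genes Klra7 (0.15), Ncr1 (0.27) and Klrg1 (0.30), and those nearest to Nkg7 were Klre1 (0.15), Klrg1 (0.16) and AW112010 (0.16). For Ccl5 they were Igsf6 (0.16), Il18rap, a chain of the interleukin 18 receptor (0.17), and Klrg1 (0.17). For Srgn they were Sdf2 (0.26), Zfp825 (0.26) and Add1 (0.26), and the nearest granule gene to Srgn was Gzmm, at 0.45 and place 3052 among the genes compared. Klra7, the nearest to Prf1, had 1.25, 1.01, 0.947 and 1.12 FPKM in high dose replicates 1 to 4, against 6.83, 3.25, 20.2 and 11.7 FPKM in model replicates 1 to 4.

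On the RefSeq map of GRCm38.p6, used for the order of genes alone, Gzma and Gzmk lie side by side, and Gzmb lies beside Gzmc. Over all tested genes, 4.27% were called lower and 5.86% higher. Of the 18 other genes beside the 10, 12 were tested, of which 1 was called lower, 1 higher and 10 not called. Both called genes were named after their values were seen. Efemp2, next to Ctsw, encodes a matrix protein of elastic fibres and rose to 30.7 ± 5.09 FPKM in high dose libraries, against 17.2 ± 1.51 FPKM in model libraries (0.79 ± 0.12, limma adjusted p = 0.00605). The other, next to Prf1, was Adamts14, a procollagen-processing protease. It had 1.77, 1.11, 1.41 and 1.32 FPKM in high dose replicates 1 to 4, against 3.62, 1.88, 5.94 and 4.20 FPKM in model replicates 1 to 4. Adamts14 was thus lower in every high dose library and ordered like Prf1 among model libraries (log2 difference -0.97 ± 0.24, limma adjusted p = 0.0367), a call not made in 7 of the 8 fits without 1 library (each but that without model replicate 2; adjusted p up to 0.0910). Pald1, on the other side of Prf1, averaged 23.7 ± 2.15 FPKM in high dose and 23.1 ± 2.92 FPKM in model libraries (0.04 ± 0.11, adjusted p = 0.850).

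The machinery around the granules was read from further lists of known roles. Of 22 genes of granzyme processing and granule release, 2 were lower, 2 higher and 18 not called, with a median log2 difference of 0.03, where 4.27% of tested genes were called lower and 5.86% higher. Those that fell were Coro1a, an actin regulator of leukocytes (103.5 ± 13.8 FPKM in high dose, 169 ± 32.4 in model, SD, n = 4 each; -0.69 ± 0.16, limma adjusted p = 0.0254), and Was, which promotes actin branching (10.3 ± 0.535 FPKM in high dose, 19.5 ± 5.99 in model; -0.81 ± 0.20, adjusted p = 0.0338). Those that rose were Igf2r, a receptor that sorts lysosomal enzymes, by 0.48 ± 0.11 (adjusted p = 0.0286), and Cd63, a granule membrane protein, by 0.57 ± 0.14 (adjusted p = 0.0315). None of these 4 calls was made without model replicate 1 or 3 or high dose replicate 1 or 3, and none without the filter on low values, which left 0 of 22 called in each case. Lamp1, a membrane protein of lysosomes and granules, averaged 355 ± 31.1 FPKM in high dose and 326 ± 29.6 FPKM in model libraries (0.13 ± 0.10, adjusted p = 0.504). Vamp8, a fusion protein of granules, averaged 237 ± 16.7 and 245 ± 11.6 FPKM (-0.05 ± 0.09, adjusted p = 0.783). Ctsc, whose protease trims granzymes to their active form and which was added outside the naming rule, averaged 51.1 ± 13.9 FPKM in high dose and 45.1 ± 9.81 FPKM in model libraries (0.17 ± 0.21, adjusted p = 0.675).

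Over all tested genes, 4.27% were called lower and 5.86% higher. Of 16 granzyme substrates and death receptor genes, 1 fell, 2 rose and 13 were not called, with a median of -0.08. The gene that fell was Fas, the receptor of Fas ligand, at 32.8 ± 2.62 FPKM in high dose and 50.6 ± 7.57 FPKM in model libraries (-0.60 ± 0.11, limma adjusted p = 0.0139). Parp1, a DNA repair enzyme cleaved in dying cells, rose by 0.36 ± 0.07 (adjusted p = 0.0153), and Tnfrsf10b, a receptor of the ligand TRAIL, by 0.71 ± 0.14 (adjusted p = 0.0174, not called without model replicate 3 or high dose replicate 3). Without model replicate 2, 5 of the 16 were called, 3 lower and 2 higher. Over all genes that fit called 970 lower and 1178 higher, against 616 and 845 with all libraries. Tnfsf10, which encodes TRAIL, averaged 33.4 ± 1.85 FPKM in high dose and 46.2 ± 15.2 FPKM in model libraries (-0.41 ± 0.18, adjusted p = 0.197), and Set, a granzyme A substrate, 69.8 ± 7.48 and 62.3 ± 2.10 FPKM (0.16 ± 0.09, adjusted p = 0.333).

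Serpins that block granzymes gave no call among 5 tested of 10 listed (2 at an unadjusted p under 0.05), with a median of 0.22, and the calls that arose when a library was left out went opposite ways. An unadjusted p under 0.05 was reached by 3688 of all 14418 tested genes in the limma fit. Serpinb9b, named outside the rule, averaged 1.07 ± 0.607 FPKM in high dose and 4.23 ± 3.23 FPKM in model libraries (-1.15 ± 0.46, limma adjusted p = 0.162), and was called lower without model replicate 2 (adjusted p = 0.0224). Serpinb6b, also outside the rule, averaged 56.4 ± 13.0 FPKM in high dose and 38.5 ± 4.10 FPKM in model libraries (0.52 ± 0.16, adjusted p = 0.0693), and was called higher without high dose replicate 2 (adjusted p = 0.0457). Serpina3n, whose product inhibits granzyme B in the mouse, averaged 91.2 ± 57.5 FPKM in high dose and 63.9 ± 37.5 FPKM in model libraries (0.51 ± 0.51, limma adjusted p = 0.590), and Serpinb6a 72.8 ± 5.50 and 67.4 ± 18.9 FPKM (0.15 ± 0.17, adjusted p = 0.654). The share of all tested genes called lower was 4.27%. Of 7 tested receptors and sister chemokines of Ccl5, 1 fell and 6 were not called, with a median of -0.27, and 2 were called without model replicate 1. Ccr1, a Ccl5 receptor of monocytes and neutrophils, fell to 6.52 ± 1.33 FPKM in high dose libraries, against 18.1 ± 6.88 FPKM in model libraries (-1.29 ± 0.24, adjusted p = 0.0145). Ackr2, a scavenging receptor, had 13.2 ± 0.460 FPKM in high dose and 17.5 ± 3.11 FPKM in model libraries (-0.36 ± 0.12, adjusted p = 0.0935, and 0.0481 in the fit that left out model replicate 1) and the chemokine Ccl8 15.7 ± 5.32 and 16.6 ± 10.1 FPKM (0.02 ± 0.39, adjusted p = 0.979).

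Among all tested genes, 4.27% were called lower. Of 12 tested transcription regulators of cytotoxic lymphocytes, 1 fell and 11 were not called, with a median of -0.19. The gene that fell was Tbx21, which encodes T-bet, a T-box activator of granule genes, at 1.16 ± 0.351 FPKM in high dose and 4.98 ± 2.20 FPKM in model libraries (-1.40 ± 0.26, limma adjusted p = 0.0145). Its T-box relative Eomes, named outside the rule, had 0.862 ± 0.223 FPKM in high dose and 2.11 ± 1.16 FPKM in model libraries and did not pass (-0.68 ± 0.23, adjusted p = 0.0993). Eomes passed the filter of a mean of 1 FPKM only through the model group. Leaving out model replicate 2 gave Eomes a limma adjusted p of 0.0356 and called 4 of the 12 regulators, all lower. That fit also called more genes lower over the whole table, 970 against 616 with all libraries. Id2, a regulator that innate lymphocytes require, had 82.3 ± 14.0 FPKM in high dose and 78.9 ± 6.48 FPKM in model libraries (0.05 ± 0.13, adjusted p = 0.855), and Ets1 58.4 ± 3.04 and 51.9 ± 9.17 FPKM (0.18 ± 0.13, adjusted p = 0.413). Both are also expressed in cells other than lymphocytes.

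Markers of the cells that could carry the transcripts moved as follows. The share of all tested genes called lower was 4.27%. Of 13 tested natural killer markers, 11 fell, 0 rose and 2 were not called (median -1.42). Among those called, Klra9 (0.841 ± 0.333 FPKM in high dose, 4.45 ± 2.50 FPKM in model) and Klri2 (0.513 ± 0.0922 FPKM in high dose, 2.52 ± 1.57 FPKM in model) passed the filter of a mean of 1 FPKM only through the model group. Il2rb, a chain of the interleukin 2 and 15 receptors, was the most abundant and did not pass, at 7.08 ± 0.813 FPKM in high dose and 24.1 ± 15.3 FPKM in model libraries (-1.41 ± 0.42, limma adjusted p = 0.0743; 0.00506 without model replicate 2). Klrd1, a receptor subunit, fell by 1.20 ± 0.22 (adjusted p = 0.0140), and Klra8, an activating Ly49 receptor, by 1.85 ± 0.34 (adjusted p = 0.0143). The count was 8 to 12 in fits without 1 library. Lower granule transcripts thus stood beside lower natural killer markers in the same libraries, and the part of either in the other was not tested.

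Neutrophils, mast cells and platelets also make serglycin, and Ccl5 is stored in platelets in humans. Beside the counts of calls below, 4.27% of all tested genes were called lower. The summed level of 12 neutrophil markers was 150 to 613 FPKM in high dose and 1191 to 2868 FPKM in model libraries, with 10 of 12 called lower, no marker at 0 in every library, and S100a9 at 140.4 ± 67.9 FPKM in high dose and 847 ± 401 FPKM in model libraries. Of the called markers Ly6g, at 0.600 ± 0.273 FPKM in high dose and 4.97 ± 3.05 FPKM in model libraries, passed the filter only through the model group. Ltf, which encodes lactoferrin, stood the other way, at 73.4 ± 52.8 FPKM in high dose and 18.9 ± 11.4 FPKM in model libraries (1.79 ± 0.53, limma adjusted p = 0.0729). It was called higher with the replicate block (adjusted p = 0.0347) and without model replicate 2 or high dose replicate 1. The log2 difference of Srgn over the same libraries was -0.12, and the part of neutrophils in it was not tested. Among model libraries the neutrophil sum was highest in replicate 4, at 2868 FPKM, as were Srgn and Gzmm, while the other 8 granule genes were highest in replicate 3. The 9 measured mast cell markers summed to 93.7 to 118 FPKM in high dose and 127 to 152 FPKM in model libraries, with 2 of 4 tested called lower, and most of this sum came from Kit, Hdc and Gata2. The other 5 of the 9 (Cpa3, Mcpt4, Tpsb2, Ms4a2 and Fcer1a) averaged under 1 FPKM over the 8 libraries, were not tested, and had higher means in high dose than in model libraries, with overlap. Cpa3, a mast cell protease, averaged 0.929 ± 0.404 FPKM in high dose and 0.555 ± 0.197 FPKM in model libraries. The median log2 difference of the list was -0.46, and 0.105 without the filter on low values, so its direction rested on that filter. The 2 calls, of Gata2 and the protease gene Cma1, were both lost without model replicates 1 or 3 or high dose replicates 1 or 4. The 8 platelet markers summed to 56.7 to 110.4 FPKM in high dose and 78.7 to 170 FPKM in model libraries, overlapping, with 1 of 8 called lower (Ppbp, adjusted p = 0.0398, not called in 6 of the 8 fits without 1 library), and 3 of 8 without high dose replicate 2.

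Markers of cells that do not carry the granules were read in the same libraries, and few were called. Their part in the granule values was not tested. The 6 fibroblast markers summed to 429 to 622 FPKM in high dose and 180 to 504.4 FPKM in model libraries, with a median log2 difference of 0.90 and 0 of 6 called by limma (3 at an unadjusted p under 0.05). Among all 14418 tested genes, 3688 had an unadjusted p under 0.05 in that fit. Col1a1, Col1a2 and Col3a1, which encode fibrillar collagens, had log2 differences of 1.51 ± 0.49, 1.28 ± 0.34 and 1.59 ± 0.52. Their groups overlapped, and all 3 were called higher without model replicate 4. Col1a2 (adjusted p = 0.050007) was also called under 5 other alternatives, quantile normalization, a minimum mean of 5 FPKM, both other pseudocounts, and variances without trend. Of all tested genes, 5.86% were called higher and 4.27% lower. The 6 alveolar epithelium markers had a median of 0.46, with 1 called higher, 0 lower and 5 not called. The call was of Lamp3, a lamellar body protein of surfactant-producing cells, at 158 ± 12.7 FPKM in high dose and 109.9 ± 23.5 FPKM in model libraries (0.54 ± 0.15, adjusted p = 0.0497), and was not made in 7 of the 8 fits without 1 library, nor under 6 other alternatives, median centring and the replicate block among them. None of the 5 endothelium markers was called by limma (2 at an unadjusted p under 0.05), and their median log2 difference was 0.0047.

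**Figure D5:**
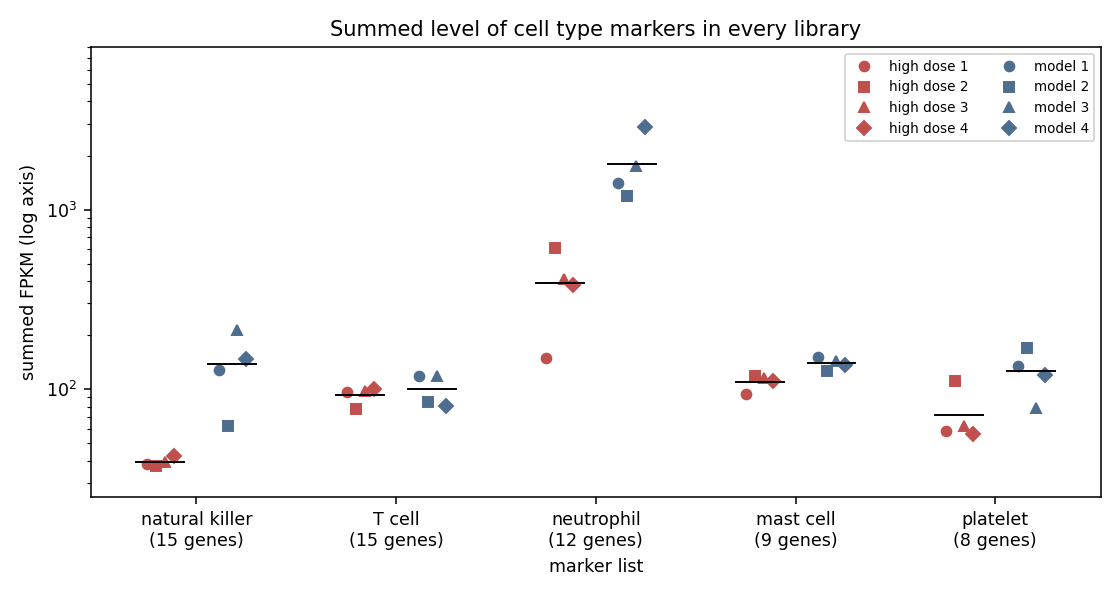
Summed FPKM (log axis) of the measured markers of each cell type in the 4 high dose (red) and 4 model (blue) libraries, black lines at the group means. Natural killer (37.3 to 42.4 against 62.4 to 212) and neutrophil sums (150 to 613 against 1191 to 2868) lie lower in every high dose library. Mast cell sums (93.7 to 118 against 127 to 152), mostly Kit, Hdc and Gata2, do so too, whereas T cell and platelet sums overlap.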

How the data were processed

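The authors deposited 1 table for 8 mouse libraries, with 48632 rows, 1 column per library and no pooling. The header names no unit, and FPKM was inferred from the values the authors deposited, which are decimals whose column sums differ between libraries. Per the submitters' processing notes, reads were placed on mm39. Per the labels' protocols, an Rneasy kit served for RNA and a SMARTER mRNA-Seq kit for libraries. The aligner, quantifier, annotation and use of strand are not stated. Rows without a gene name (7015, holding 50.0% to 65.2% of a library's FPKM) were left out, and rows of 1 gene name were summed; each of the 10 genes had 1 row.

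The fit used limma 3.58.1 (R 4.3.3) on log2(FPKM + 1) of 14418 genes whose mean over all libraries reached 1 FPKM. It had a single group term and trended, robust variances. P-values were two-sided and Benjamini-Hochberg adjusted over all genes, with a threshold of 0.05, and differences are high dose minus model. This scale understates changes of low genes. A call is an adjusted p under 0.05. The fit was tested on simulated data. The 10 genes and all lists were chosen with earlier results of these data known. Genes were named by a rule: all 10, the 3 nearest profiles of Gzma, Prf1, Nkg7, Srgn and Ccl5, up to 4 called and 2 abundant uncalled genes of each pathway list, and up to 3 abundant markers of each cell type; others are marked or were chosen after their values were seen, and not all that the rule took are described. Zfp683 and Tpsab1 were absent from the gene name column. Ratios and shares were computed on FPKM. Alternatives were other normalizations, filters, pseudocounts, variance settings, unsummed rows, a replicate block and each library left out. Figures were drawn with matplotlib 3.10.9.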

Additional observations from a re-analysis of the deposited data

Results flagged for a closer look

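None of the 10 granule genes had a library far from the other 3 of its group. Among the other genes named above, 7 did, by a gap to the nearest library that exceeded Dixon's critical share of the range of the group. Tnfsf10 had 68.9 FPKM in model replicate 1, against 37.6 to 39.9 FPKM in the other model libraries. Ppbp had 40.7 FPKM in high dose replicate 2, against 17.3 to 19.0 FPKM in the other high dose libraries. Was had 9.55 FPKM in high dose replicate 3, against 10.5 to 10.7 FPKM, and Parp1 had 15.3 FPKM in high dose replicate 2, against 15.9 to 16.1 FPKM in the other high dose libraries. Efemp2 had 38.4 FPKM in high dose replicate 3, against 27.9 to 28.6 FPKM, and Eomes had 1.19 FPKM in high dose replicate 1, against 0.717 to 0.769 FPKM in the other high dose libraries. Fcer1a had 0.553 FPKM in model replicate 1, against 0.136 to 0.205 FPKM in the other model libraries. In all 176 groups of 4 were examined, and chance alone sets apart about 1 group in 20.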

How the results depend on the processing

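Numbers of calls over all genes moved most with single libraries. Genes called higher in high dose were 845, and 364 to 1178 when 1 library was left out, 518 without the filter on low values and 486 with the replicate block. Genes called lower were 616, and 329 to 970 when 1 library was left out. Of the granule release and processing list 4 were called, with 0 to 5 when 1 library was left out, 0 without the filter and 1 with the block. Leaving out 1 library gave 2 to 5 calls for granzyme targets (3 with all libraries), 0 to 1 for serpins (0), 1 to 2 for the Ccl5 list (1), 1 to 4 for transcription regulators (1), 8 to 12 for natural killer markers (11) and 0 to 1 for T cell markers (0). A minimum mean of 5 FPKM gave 0 calls for regulators and 7 for natural killer markers. Quantile normalization and median centring each gave 1 call for T cell markers.

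Of the 10 granule genes 6 were called lower, and 5 to 7 under the alternatives, a count that the choice of these genes on the same comparison bears on and that is no test. Leaving out 1 library gave a median of the 10 between -1.73 and -1.25. The sign changed for Srgn without high dose replicate 3. Same-numbered libraries correlated at 0.154, 0.276, -0.068 and -0.092 in their deviations from the group means, and 1 of 4 (number 2) correlated best with its own number. No pairing by number was seen, but 4 correlations cannot exclude one. Of 597 other values 548 stayed within the spread or within 1.5 times and 49 did not; the cause was not tested. The ratios to natural killer markers were varied after the data were seen. Depth is unknown, so values near 1 FPKM, such as those of Gzmk, Gzmm and Fasl, have no counting error attached.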
